A study of Mus musculus with 24 samples.

Results

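In all, 9 genes of the complement system were followed across 24 libraries of mouse brain: C1qa, C1qb, C1qc, C2, C3, C4b, Cfb, C3ar1 and C5ar1. They were chosen by name, with earlier results of these data known, from a gene count table of 55421 Ensembl identifiers. All 9 were found, each as 1 row. The libraries came from the left hemispheres of 3-month-old mice that were wild type or carried a knockout of Nox2, and every library bears the strain label C57BL/6J. Mice of both genotypes were injected into the peritoneum on 4 consecutive days with 100 µl of either phosphate-buffered saline (PBS) or lipopolysaccharide (LPS, from the outer membrane of Salmonella abortus equi, 1 µg per g body weight per day). This gave 4 groups of 6 animals: wild type PBS, wild type LPS, knockout PBS and knockout LPS. Nox2, also called gp91phox, is the catalytic subunit of the NADPH oxidase of phagocytes and is encoded by Cybb. The labels do not say which part of the gene was disrupted, whether the animals were littermates or how long after the last injection the brains were taken.

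Complement is a cascade of plasma and tissue proteins that tags surfaces for uptake by phagocytes. C1q, built from chains A, B and C, recognises targets and starts the classical pathway. Its proteases cleave C4 and C2, whose fragments form a convertase that cleaves C3. Factor B, encoded by Cfb, takes the place of C2 in the alternative pathway. Cleavage of C3 and C5 also releases the small peptides C3a and C5a, the anaphylatoxins, which act through the receptors encoded by C3ar1 and C5ar1. In the brain, C1q is made mainly by microglia, C3 and C4 rise in reactive astrocytes, and the cascade is known for the removal of synapses during development and disease.

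Libraries held 2340184 counts to 5256169 counts, and levels are given as CPM, counts scaled to library size. Only the 3′ ends of transcripts are sequenced by this method, so a level in CPM does not scale with gene length and levels of different genes may be set side by side. Cybb, the targeted gene, stood at 0.853 to 2.50 CPM in wild type PBS, 15.7 to 34.0 CPM in wild type LPS, 63.1 to 76.2 CPM in knockout PBS and 67.5 to 77.3 CPM in knockout LPS libraries. Its 3′ tags were thus higher in the libraries labelled knockout. Since the disrupted part is not given, these tags do not check the labels, and every direction between genotypes below rests on them. In wild type LPS, replicates 1 and 2 resembled each other (chi-square per degree of freedom 1.83) more than they did replicates 3 to 6 (2.88 to 4.74). Among themselves replicates 3 to 6 were at 1.72 to 3.1, so these ranges overlapped. Replicates 1 and 2 also had the highest shares of mitochondrial ribosomal RNA, 5.07 and 5.39% against 3.39 to 3.596% in the other 4 of the group. Knockout LPS libraries had 3.895 to 4.71%, above those 4. PBS libraries had 3.968 to 4.225% in wild type and 3.489 to 4.429% in knockout. Every wild type PBS library thus lay above replicates 3 to 6 and below replicates 1 and 2 of wild type LPS. The part of this share in the LPS changes and in the genotype differences was not tested. Results that replicates 1 and 2 of wild type LPS change are given with and without them.

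After LPS, 7 of the 8 complement genes that could be tested rose in each genotype, by 3.42 to 24.5 times. The exception was C2. Cfb, with at most 4 counts in a library, fell below the count filter and is described by its counts. In a fit of only the 2 PBS groups, 5 members passed this filter. C3, C3ar1 and C5ar1 held at most 7, 14 and 6 counts in a PBS library and passed it through their LPS levels. Their rises, here and below, are thus not independent of the filter. Among all 14380 genes tested, 10.9% were called higher after LPS in wild type and 7.05% in the libraries labelled knockout. The median log2 fold change of the 8 tested members was 2.48 in wild type and 2.13 in knockout, against -0.01 and -0.00 over all genes tested. Because the choice of members was made with earlier results known, their contrasts with all genes, here and below, are descriptions. All fold changes, standard errors (SE) and adjusted p-values are from edgeR's quasi-likelihood test with Benjamini-Hochberg adjustment over all genes tested, and a gene is called at an adjusted p under 0.05.

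The 3 C1q genes were the most abundant members. They lie side by side on the minus strand of chromosome 4 (GRCm38) within 18675 bases, from C1qb at 136880129 to 136886187 over C1qc at 136889804 to 136893065 to C1qa at 136895917 to 136898803. C1qb and C1qc have an entry among the RefSeq promoters of GRCm38.p6, which cover 250 bases before to 50 bases after the start of transcription. These are printed because the 2 neighbours rose by similar amounts, and the capitals in C1qc mark a match to the NF-kB consensus.
C1qb, chr4:136886151-136886450, minus strand: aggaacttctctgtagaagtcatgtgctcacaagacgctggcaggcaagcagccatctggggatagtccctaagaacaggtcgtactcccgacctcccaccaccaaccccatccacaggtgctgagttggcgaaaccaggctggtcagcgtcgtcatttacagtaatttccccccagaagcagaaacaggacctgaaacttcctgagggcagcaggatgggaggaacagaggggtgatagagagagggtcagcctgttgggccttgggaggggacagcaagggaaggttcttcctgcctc
C1qc, chr4:136892865-136893164, minus strand: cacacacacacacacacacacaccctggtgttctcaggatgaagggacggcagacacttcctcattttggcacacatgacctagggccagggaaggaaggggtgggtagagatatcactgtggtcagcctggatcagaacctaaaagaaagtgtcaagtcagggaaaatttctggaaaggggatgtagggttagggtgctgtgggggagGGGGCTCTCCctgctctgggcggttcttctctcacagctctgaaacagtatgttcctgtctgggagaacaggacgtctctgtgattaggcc

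The windows were searched on both strands for the NF-kB consensus, for the interferon-stimulated response element (GAAA and GAAA with 2 bases between) and for the gamma-activated site TTCNNNGAA. The NF-kB match in C1qc, GGGGCTCTCC, lies 41 to 32 bases before the RefSeq start, and C1qb held no match to any of the 3 motifs in this window. The GENCODE gene C1qc begins further upstream on the minus strand, at 136893065. By that model the match lies inside the gene and not before its start. Windows were at hand for 5 of the 9 members: C1qb, C1qc, C3, C3ar1 and C5ar1. Of these 5, 1 held an NF-kB match and 0 held either of the other motifs. The NF-kB consensus occurs in 5.80% of the 32851 promoter windows of this length, the interferon element in 3.44% and the gamma-activated site in 8.30%. A match is a description of the letters and does not show binding.

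C1qa, which encodes chain A, ranged from 47.2 to 62.4 CPM in wild type PBS (median 55.8) and from 207 to 303 CPM in wild type LPS (median 263). In the libraries labelled knockout it ranged from 46.2 to 58.8 CPM after PBS (median 51.1) and from 165 to 224 CPM after LPS (median 204). In both genotypes every LPS library lay far above every PBS library. The rise was 4.72-fold in wild type (95% interval 4.23 to 5.27, adjusted p = 1.74e-25) and 3.93-fold in knockout (3.51 to 4.4, adjusted p = 3.93e-23).

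C1qb, chain B, went from a median of 30.4 CPM (27.1 to 40.2) after PBS to 112 CPM (94.6 to 120) after LPS in wild type. In the libraries labelled knockout it went from 27.0 CPM (25.4 to 31.5) to 92.5 CPM (89.3 to 104). Here too the PBS and LPS libraries were apart, with rises of 3.44-fold (3.09 to 3.83) and 3.42-fold (3.05 to 3.82). C1qc, chain C, went from a median of 32.6 CPM (27.3 to 42.7) to 140 CPM (117 to 154) in wild type and from 29.9 CPM (27.3 to 34.8) to 117 CPM (85.1 to 126) in knockout. Its rises were 4.09-fold (3.61 to 4.63) and 3.79-fold (3.33 to 4.31), between those of the other chains. The adjusted p-values of both genes were between 1.24e-22 and 1.20e-20.

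**Figure D1:**
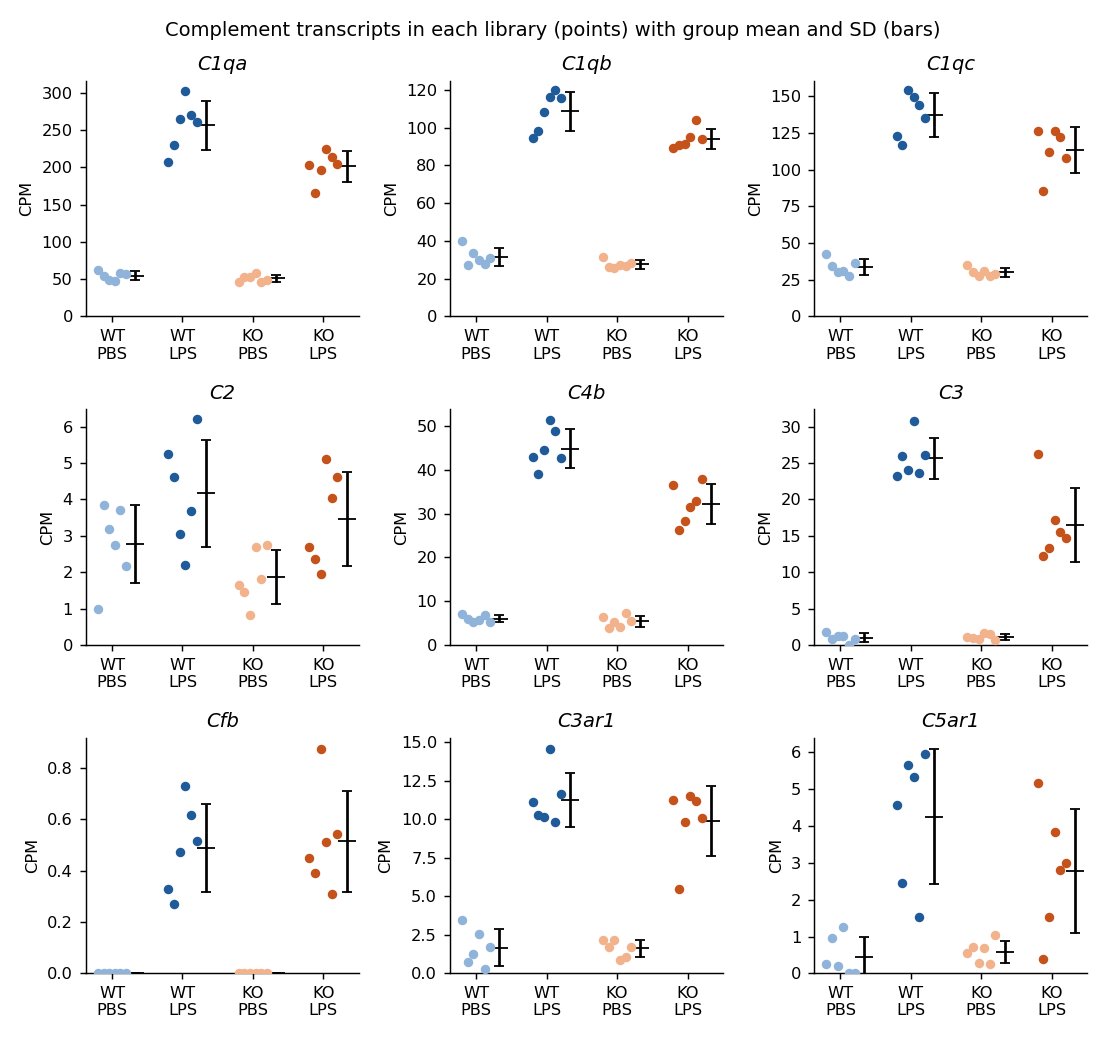
Level of each of the 9 complement genes in CPM (vertical axis, a separate linear scale from 0 for each gene) in the 4 groups (WT, wild type; KO, libraries labelled knockout). Points are the 6 libraries in order of replicate number, and bars give the mean and SD, cut at 0 where the SD is wider than the mean. Every LPS point is above every PBS point of the same genotype for all genes but C2, and but C5ar1 in the libraries labelled knockout.

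The chains did not rise by the same factor in wild type. The C1q protein holds the 3 chains in equal numbers, so the ratio of their tags was examined within each library, where the scaling between libraries cancels. The ratio of C1qa to C1qb counts was 1.44 to 2.09 in wild type PBS and 2.19 to 2.61 in wild type LPS, so these libraries did not overlap. The geometric means were 1.74 and 2.35, a shift of 0.44 ± 0.10 on the log2 scale (SE, n = 6 per group, two-sided exact permutation test p = 0.00216, the smallest that 924 arrangements allow, adjusted over 6 tests 0.013). In the libraries labelled knockout the ratio was 1.47 to 2.16 after PBS and 1.81 to 2.37 after LPS, with a shift of 0.20 ± 0.10 (exact permutation p = 0.0671, adjusted 0.101). The difference of these shifts between genotypes was not tested. C1qc to C1qb shifted by 0.24 ± 0.08 in wild type (exact permutation p = 0.0173, adjusted 0.0519), with 6 of 6 LPS libraries above the PBS mean. The other 3 shifts were 0.07 to 0.19, with adjusted p from 0.101 to 0.517. Without replicates 1 and 2 of wild type LPS, the C1qa to C1qb shift was 0.46, with all 4 LPS ratios above every PBS ratio. With same-numbered libraries paired it was 0.44, with the LPS ratio higher in 6 of 6 pairs. The exact permutation p-values, 0.00952 and 0.0312, were the smallest these designs allow, and their adjusted values of 0.0571 and 0.188 say nothing on the stability of the shift.

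**Figure D2:**
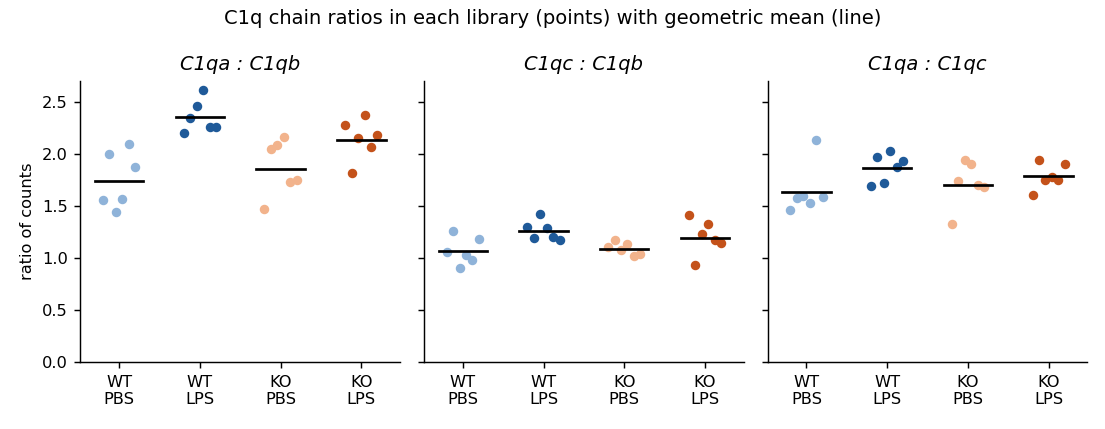
Ratio of counts between C1q chains within each library (vertical axis, linear from 0) in the 4 groups, for C1qa to C1qb, C1qc to C1qb and C1qa to C1qc. Points are libraries and lines geometric means. In wild type the C1qa to C1qb ratio is 1.44 to 2.09 after PBS and 2.19 to 2.61 after LPS.

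C4b (chromosome 17, 34728380 to 34743882, minus strand) encodes the component that C1 cleaves first. It ranged from 5.19 to 6.99 CPM in wild type PBS (median 5.82) and from 39.0 to 51.5 CPM in wild type LPS (median 43.7). In the libraries labelled knockout it ranged from 3.86 to 7.27 CPM after PBS (median 5.34) and from 26.3 to 38.01 CPM after LPS (median 32.2). The PBS and LPS libraries were again apart, and the rise was 7.44-fold in wild type (6.28 to 8.83) and 6.09-fold in knockout (5.06 to 7.32). C4a, a near-identical neighbouring gene on the same strand, held 19 counts over wild type PBS and 18 over wild type LPS libraries, and 11 and 21 in knockout. It was below the filter while C4b went from 147 to 1000 counts in wild type and from 120 to 729 in knockout. How tags matching both genes were counted is not given in the sources used here.

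C2 (chromosome 17, 34862604 to 34898265, minus strand), the protease that joins C4b in the convertase, was the tested member without a call. It stood at 0.999 to 3.85 CPM in wild type PBS (median 2.96), 2.18 to 6.202 in wild type LPS (median 4.15), 0.819 to 2.75 in knockout PBS (median 1.73) and 1.96 to 5.12 in knockout LPS (median 3.36). The LPS and PBS ranges overlapped in both genotypes. The change was 1.44-fold in wild type (95% interval 0.969 to 2.15, adjusted p = 0.212) and 1.85-fold in knockout (1.17 to 2.90, adjusted p = 0.0743). With 3 to 24 counts per library the interval does not reach the folds of the other members. The call in knockout changed in 2 of the alternative fits, to an adjusted p of 0.036 without replicate 3 of knockout LPS and 0.0487 with only the 2 groups compared.

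C3 (chromosome 17, 57203970 to 57228136, minus strand), the central component on which the pathways converge, had the largest rise among the tested members. Its RefSeq promoter is shown for that reason. It held no match to any of the 3 motifs, so no letters are in capitals.
C3, chr17:57228087-57228386, minus strand: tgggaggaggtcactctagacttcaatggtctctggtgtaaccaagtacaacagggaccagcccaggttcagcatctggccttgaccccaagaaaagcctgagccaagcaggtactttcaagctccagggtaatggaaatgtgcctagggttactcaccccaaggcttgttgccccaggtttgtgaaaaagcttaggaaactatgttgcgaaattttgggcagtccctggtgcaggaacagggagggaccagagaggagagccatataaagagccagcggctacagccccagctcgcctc

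In wild type C3 stood at 0 to 1.75 CPM after PBS (median 1.06, 25 counts over the group) and at 23.2 to 30.8 CPM after LPS (median 25.0, 574 counts). In the libraries labelled knockout it stood at 0.687 to 1.58 CPM after PBS (median 1.03) and at 12.2 to 26.2 CPM after LPS (median 15.1). No LPS library came near the PBS range. Of the knockout LPS libraries, replicate 1 was at 26.2 CPM and the other 5 were at 12.2 to 17.2 CPM. The rise was 24.5-fold in wild type (17.6 to 34.0, adjusted p = 2.66e-20) and 14.3-fold in knockout (10.1 to 20.3, adjusted p = 2.35e-16).

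Cfb (chromosome 17, 34856374 to 34862518, minus strand) was seen after LPS and in no PBS library. Its counts per library were 1 to 3 in wild type LPS and 1 to 4 in knockout LPS, or 11 and 12 over the groups, against 0 over each PBS group. Taking a PBS group as holding 3 counts rather than 0, Cfb was 4.04-fold higher after LPS in wild type and 4.05-fold higher in knockout. These folds allow for the counting error of the PBS group only and are not lower bounds. The LPS counts had Poisson limits of 5.49 to 19.7 in wild type and 6.2 to 21 in knockout. The two-sided exact permutation test of CPM, chosen after it was seen that the gene fell below the filter, gave p = 0.00216 in each genotype (n = 6 per group), the smallest this design allows. It was not adjusted, and full separation of the libraries gives this value by itself, so it adds nothing to the counts. A read-through gene model, Gm20547, covers 171 of the 209 bases of the last exon of Cfb on the same strand, where 3′ tags fall, and had 0 counts in all 24 libraries. How tags matching both models were counted is not given in the sources used here, and the part of this overlap in the low counts was not tested. For C2 the same model covers 9 of the 428 bases of the last exon.

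The receptors of the anaphylatoxins rose from low levels. C3ar1 (chromosome 6, 122847138 to 122856161, minus strand) stood at 0.285 to 3.50 CPM in wild type PBS (median 1.503) and 9.84 to 14.6 CPM in wild type LPS (median 10.7). In the libraries labelled knockout it stood at 0.901 to 2.19 CPM after PBS (median 1.70) and 5.49 to 11.5 CPM after LPS (median 10.6). Replicate 2 of knockout LPS, the lowest at 5.49 CPM, was still above every PBS library. The rises were 6.63-fold (4.65 to 9.46, adjusted p = 8.23e-12) and 6.21-fold (4.28 to 9.00, adjusted p = 1.49e-10).

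C5ar1 (chromosome 7, 16246743 to 16259540, minus strand) stood at 0 to 1.263 CPM in wild type PBS (median 0.231, 13 counts over the group) and 1.54 to 5.94 CPM in wild type LPS (median 4.96, 97 counts). In knockout it stood at 0.260 to 1.03 CPM after PBS (median 0.612) and 0.392 to 5.16 CPM after LPS (median 2.89). It varied most among the LPS libraries, and in knockout the ranges overlapped because replicate 2 held 1 count. The rises were 7.79-fold (4.15 to 14.7, adjusted p = 1.68e-06) and 4.86-fold (2.45 to 9.63, adjusted p = 0.000686). C5ar1 fell below the filter, and so had no call, in the fits of only the 2 wild type or only the 2 knockout groups.

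**Figure D3:**
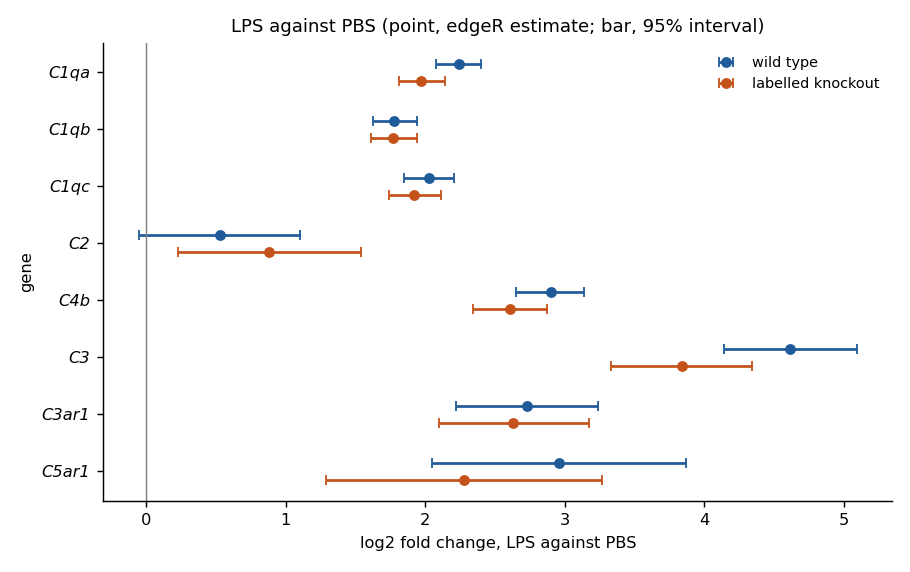
Log2 fold change of LPS against PBS (horizontal axis) for the 8 tested members (vertical axis), in wild type and in the libraries labelled knockout. Points are edgeR estimates and bars 95% intervals. C3 is highest at 4.61 and 3.84, and only the bar of C2 in wild type crosses 0.

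Every LPS library lay above every PBS library for 7 of the 8 tested members in wild type and for 6 in knockout, where C5ar1 overlapped as well as C2. Over all genes tested, this held for 5.88% in wild type and 4.24% in knockout. Summed over the 9 members, the level went from 132 ± 13.9 CPM (SD, n = 6) to 593 ± 61.2 CPM in wild type and from 119 ± 5.54 to 474 ± 47.4 CPM in the libraries labelled knockout. The C1q chains made up 90.9 ± 1.23% of this sum after PBS and 84.6 ± 1.06% after LPS in wild type, and 91.1 ± 1.32% and 86.3 ± 1.65% in knockout. After LPS the levels ran from C1qa over C1qc, C1qb, C4b, C3 and C3ar1 down to C5ar1, C2 and Cfb. In knockout LPS, C2 stood above C5ar1 in its mean, 3.46 ± 1.30 against 2.78 ± 1.68 CPM, a gap within the SDs. After PBS the order of the first 4 was the same, and C1qc and C1qb lay within their SDs, at 33.7 ± 5.40 and 31.6 ± 4.81 CPM in wild type. In wild type LPS C2 and C5ar1 were at 4.16 ± 1.47 and 4.25 ± 1.83 CPM.

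Genes with the most similar pattern over the 24 libraries were found by the root mean square difference in log2 CPM after centring each gene on its own mean, among 12733 genes with at least 2 CPM on average, leaving out the members themselves. For C1qa they were Ifitm3, an interferon-induced membrane protein (difference 0.18), Gfap, the intermediate filament of astrocytes (0.19), and the Fc receptor gene Fcgr3 (0.20). For C1qb they were B2m, the light chain of MHC class I (0.16), the cathepsin gene Ctss (0.16) and Ly6a (0.19). C1qc shared Ifitm3, B2m and Gfap (0.18 to 0.21). The difference was 0.16 from C1qa to C1qc and 0.17 from C1qb to C1qc, and 0.23 from C1qa to C1qb. The nearest genes to C4b were the integrin gene Itgam (0.28), Igfbp7 (0.31) and Vwf, von Willebrand factor (0.34). Those nearest to C3 were Lyz2, lysozyme (0.40), Ms4a6c (0.45) and Serpina3n, a protease inhibitor (0.47). C3ar1 was nearest to F13a1 (0.44) and C5ar1 to S100a11 (0.50), while for C2 the smallest difference was 0.41, to Prelp. The measure is a description with no test.

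Other complement genes were taken from a list of 50 by role, of which 21 passed the count filter. In wild type 8 were called higher and 1 lower after LPS, and in the libraries labelled knockout 7 and 1. Of all genes tested, 10.9% were called higher and 7.12% lower in wild type, and 7.05% and 3.82% in knockout, so the single falls lie near the share over all genes. The calls lay in 4 of the 7 roles. C1ra, a protease of the C1 complex, rose by 2.79 ± 0.40 on the log2 scale in wild type and 2.05 ± 0.40 in knockout. It was the only initiator tested. C1s1, its partner protease, named after its values were seen, was below the filter with 15 counts over wild type PBS and 46 over wild type LPS libraries.

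Soluble regulators rose in 3 of 4 tested genes in each genotype. Serping1, the C1 inhibitor, rose by 1.46 ± 0.13 and 1.5 ± 0.15. Clusterin, Clu, an inhibitor of membrane attack, was far more abundant, at 397 ± 9.41 CPM in wild type PBS and 693 ± 18.9 CPM in wild type LPS (SD, n = 6), and rose by 0.81 ± 0.04 and 0.60 ± 0.04. Vitronectin, Vtn, rose by 0.48 ± 0.08 and 0.34 ± 0.08.

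Of the genes listed in the role of receptors, which is not limited to receptors for complement fragments, 3 of 6 tested rose in each genotype. Itgam and Itgb2, which encode the chains of complement receptor 3, rose by 2.62 ± 0.15 and 2.52 ± 0.27 in wild type and by 2.47 ± 0.17 and 1.75 ± 0.29 in knockout. Cd93, a membrane protein with a lectin domain, rose by 1.97 ± 0.13 and 1.79 ± 0.14. Membrane regulators showed 1 rise and 1 fall of 7 in wild type, Cr1l, the rodent regulator Crry, at 0.48 ± 0.10 and Csmd3 at -0.22 ± 0.08. In knockout there was 1 fall, Csmd2 at -0.28 ± 0.07. The lectin pathway genes Masp1 and Colec12 and the alternative pathway gene Cfp (properdin) were tested without a call. None of the 7 terminal pathway genes, Hc (which encodes C5) and C6 to C9, passed the filter, and together they stood at 0.218 to 2.98 CPM in a library. At this depth no statement on the membrane attack components was possible.

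**Figure D4:**
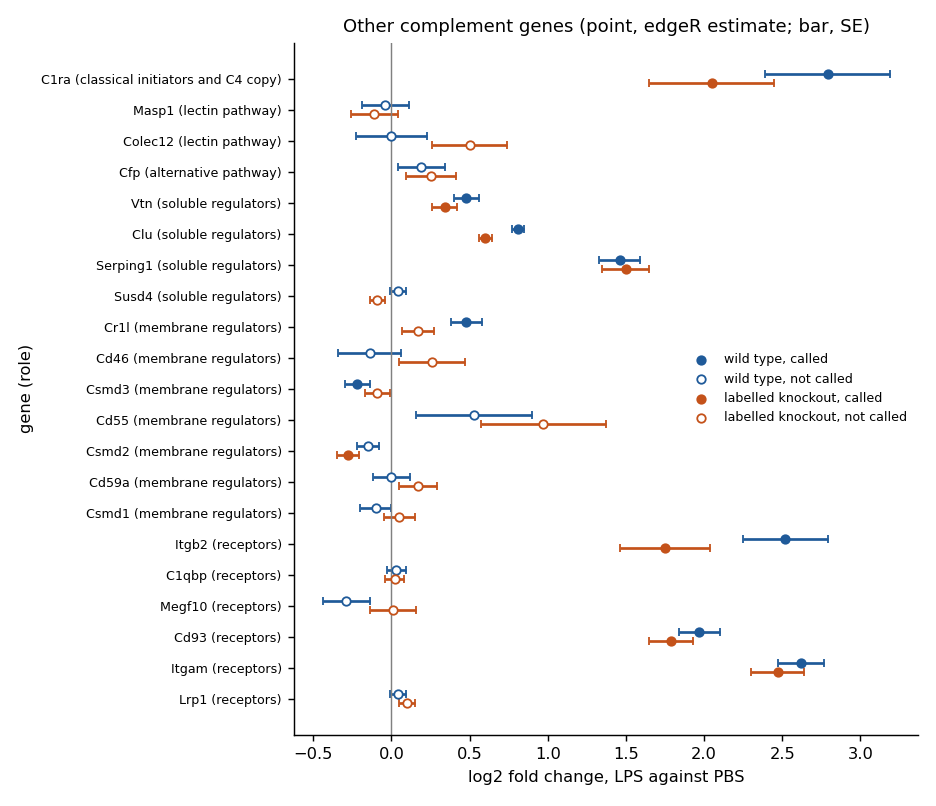
Log2 fold change of LPS against PBS (horizontal axis) for the 21 other complement genes that were tested (vertical axis, with their role), in wild type and in the libraries labelled knockout. Points are edgeR estimates, filled where called, and bars are SE. C1ra, Itgam, Itgb2, Cd93 and Serping1 rose by more than 1 in both genotypes.

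Markers of several cell types moved with these genes after LPS, and their part in the results was not tested. In bulk tissue, more or fewer cells of a type and more or less RNA per cell cannot be told apart. The 8 microglia markers summed to 223 to 273 CPM in wild type PBS and 419 to 555 CPM in wild type LPS, and to 222 to 250 and 361 to 478 CPM in knockout. Of the 8, 6 were called higher and 1 lower in wild type and 5 and 0 in knockout. Aif1 rose by 2.11 ± 0.15 and Csf1r by 1.27 ± 0.09 in wild type, while P2ry12 stood at -0.28 ± 0.15 (adjusted p = 0.19) and Siglech fell by 1.07 ± 0.19. The 7 astrocyte markers summed to 3717 to 3860 CPM in wild type PBS and 3724 to 4101 CPM in wild type LPS, and to 3829 to 3948 and 3719 to 4072 CPM in knockout, with Gfap up by 2.26 ± 0.10 and 1.88 ± 0.10. The 8 monocyte and border macrophage markers went from 14.2 to 26.2 CPM up to 127 to 227 CPM in wild type and from 13.7 to 22.7 up to 97.6 to 142 CPM in knockout, with all 6 tested called higher in each. Endothelial markers went from 156 to 204 up to 321 to 415 CPM in wild type and from 149 to 199 up to 285 to 360 CPM in knockout, with 5 of 5 higher in each. The 8 neutrophil markers ranged from 8.49 to 19.6 CPM in wild type PBS, 118 to 706 CPM in wild type LPS, 9.04 to 41.5 CPM in knockout PBS and 87.9 to 392 CPM in knockout LPS, with 5 of 5 tested higher. Fibroblast and meningeal markers had 2 of 5 higher in wild type, 142 to 182 CPM against 87.1 to 109 CPM, and 3 of 5 in knockout, 120 to 172 CPM against 67.7 to 100.0 CPM. Neuron markers had 2 of 5 lower in wild type, 4820 to 4983 CPM against 5441 to 5670 CPM, and 1 of 5 in knockout. Erythrocyte markers fell in 4 of 4 tested in each genotype. Choroid plexus markers had 1 higher and 1 lower of 5 in wild type and none called in knockout. Hepatocyte markers, set because liver is the main source of plasma complement, were at 0.392 to 3.79 CPM in all groups, with Alb and Fgb at 0 in every library.

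After PBS none of the 8 tested complement genes was called between genotypes by edgeR or by DESeq2. C1qb alone had an unadjusted edgeR p under 0.05, at -0.20 ± 0.09 on the log2 scale in the libraries labelled knockout (edgeR adjusted p = 0.517). Among all genes 0.132% were called in either direction. The 95% intervals of the C1q genes reached from -0.39 to 0.10, so changes beyond that size lie outside them. Those of C3ar1 (-0.82 to 0.67) and C5ar1 (-1.27 to 1.5) were wide.

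After LPS 3 of the 8 were lower in the libraries labelled knockout than in wild type, while 0.786% of all genes tested were called lower. These were C4b, C1qa and C3. C4b was at 26.3 to 38.01 CPM in knockout LPS and 39.0 to 51.5 CPM in wild type LPS, with no overlap, which held for 0.389% of all genes in this direction. It was lower by 0.47 on the log2 scale (-0.47 ± 0.09, 0.723-fold, 95% interval 0.635 to 0.823, adjusted p = 0.00378). C1qa was at -0.35 ± 0.07 (0.786-fold, 0.714 to 0.865, adjusted p = 0.00378), with 4 of 6 knockout libraries below the wild type range and 2 inside it. C3 was at -0.61 ± 0.14 (0.653-fold, 0.535 to 0.797, adjusted p = 0.018), with 5 of 6 knockout libraries below the whole wild type range and replicate 1 inside it. Replicate 2 of knockout LPS was the lowest of its group for C1qa, C1qc, C4b, C3, C3ar1 and C5ar1, but not for C1qb or C2. It also had the fewest counts (2595387) and the highest share of mitochondrial ribosomal RNA (4.71%) of the group. Without it 2 members were called lower, C4b and C1qa, as were 67 of all 14547 genes tested.

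The other 5 members were not called after LPS, and all 8 estimates were below 0, with a median of -0.31 against -0.00 over all genes tested. After PBS 6 of the 8 were already below 0, with a median of -0.12. After LPS C1qb was at -0.21 ± 0.07 (adjusted p = 0.134) and C1qc at -0.27 ± 0.08 (adjusted p = 0.0767). Without replicates 1 and 2 of wild type LPS both were called, at -0.29 (adjusted p = 0.0116) and -0.35 (adjusted p = 0.00526). Without replicate 1 alone both were called as well (0.0486 and 0.037). C1qc was also called without replicate 2 alone (0.0247), with no count filter (0.00769) and with the replicate block (0.0221). With no filter its estimate was -0.26, so the call there came from a smaller p-value and not from a larger difference. That fit also gave the rise of C1qa in wild type an edgeR adjusted p of 1.52e-263, against 1.74e-25 in the main fit. The receptors C3ar1 (-0.17, interval -0.55 to 0.21) and C5ar1 (-0.56, interval -1.22 to 0.10) and the protease C2 (-0.25, interval -0.82 to 0.31) had intervals that hold 0. The C3 call ended without replicate 4 of wild type LPS (adjusted p = 0.0848) or without replicate 2, 3 or 6 of knockout LPS (0.0612, 0.0735 and 0.0508), while its size stayed between -0.58 and -0.55 in these 4 fits. Without replicate 1 of knockout LPS, C3 was at -0.80 (adjusted p = 0.000403).

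**Figure D5:**
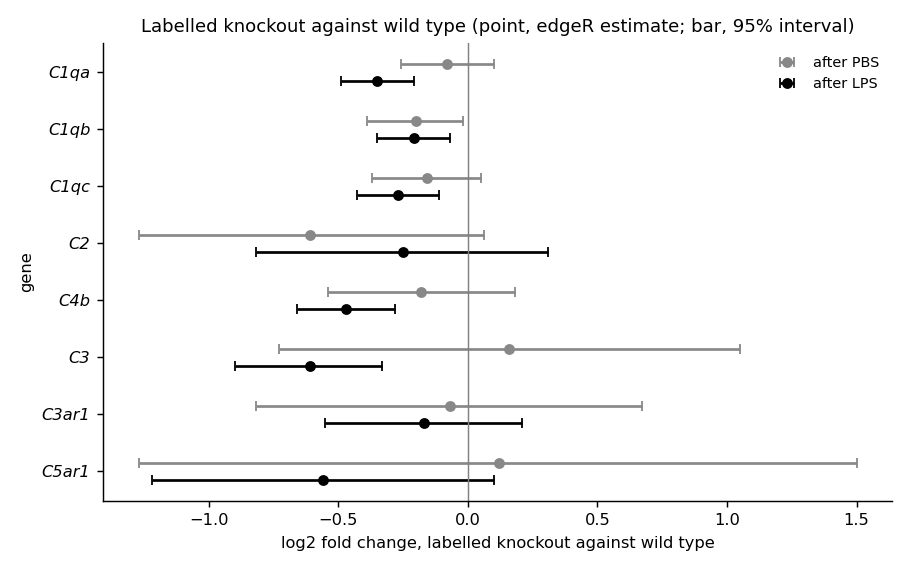
Log2 fold change of libraries labelled knockout against wild type (horizontal axis) for the 8 tested members (vertical axis), after PBS in grey and after LPS in black. Points are edgeR estimates and bars 95% intervals, not adjusted for the number of genes. After LPS the bars of C1qa, C1qb, C1qc, C4b and C3 lie below 0, of which C1qa, C4b and C3 were called.

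Of the 21 other complement genes tested, 3 were lower in the libraries labelled knockout after LPS and none higher. Among all 14380 genes tested, 113 (0.786%) were called lower and 38 higher in this comparison. The 3 complement genes were Cd93 (-0.46 ± 0.11, adjusted p = 0.0282), Vtn (-0.33 ± 0.08, adjusted p = 0.0207) and Clu (-0.16 ± 0.04, adjusted p = 0.0361). Marker genes also differed in the same comparison, in both directions, and their part in it was not tested. Called lower were 2 of 8 microglia markers, Cx3cr1 at -0.41 ± 0.09 and Sall1 at -0.42 ± 0.11, and also 2 of 7 astrocyte, 2 of 5 endothelial and 1 of 6 tested monocyte and border macrophage markers, the last being Lyz2 at -0.67 ± 0.12. The choroid plexus marker Ttr was called higher, at 0.33 ± 0.07 (adjusted p = 0.00934). Of the microglia markers Siglech (0.58 ± 0.20) and P2ry12 (0.08 ± 0.15), and of the astrocyte markers Aldh1l1 (0.25 ± 0.09), Slc1a2 (0.11 ± 0.05) and Gja1 (0.05 ± 0.07), had estimates above 0 and were not called. The microglia sums of 419 to 555 CPM in wild type LPS and 361 to 478 CPM in knockout LPS overlapped.

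Whether LPS acted differently on the members in the 2 genotypes was tested by the interaction, the LPS change in knockout minus that in wild type. None of the 8 was called by edgeR or DESeq2, and 0.00695% of all genes were. C1qa alone had an unadjusted edgeR p under 0.05, at -0.27 ± 0.11 (interval -0.49 to -0.04, edgeR adjusted p = 0.433), and without replicates 1 and 2 of wild type LPS it was at -0.36 (adjusted p = 0.0538). C3 was at -0.78 (interval -1.73 to 0.18) and C4b at -0.29 (-0.70 to 0.12). C1qb, at -0.01, had the narrow interval of -0.24 to 0.22, and C5ar1 the widest, -2.26 to 0.90. The lower levels of C4b, C1qa and C3 in the libraries labelled knockout after LPS are therefore not shown to be a smaller response to LPS.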

How the data were processed

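RNA of 24 left brain hemispheres was made into QuantSeq 3′ libraries from 100 ng of total RNA, per the labels' protocols. The deposited values are raw counts per Ensembl gene. Tools named in the submitters' processing notes are DESeq2 1.26.0, Subread 2.0.0 with featureCounts, and STAR 2.7.3a, with the build GRCm38 and no settings. Gene names were taken from GENCODE M21 and a table of gene names for 55154 of 55421 identifiers, and promoters from RefSeq.

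Counts were tested with edgeR 4.0.16 in R 4.3.3 (filterByExpr with a minimum count of 10, TMM scaling, quasi-likelihood F test on 4 group means), which kept 14380 genes. CPM are TMM-scaled. Ratios of C1q counts and the CPM of Cfb were compared by exact permutation tests over libraries in SciPy 1.17.1. DESeq2 1.42.0 was one of the alternatives, and the edgeR step was tested on simulated data. The members and gene lists were chosen with earlier results of these data known. All 9 members were named, and other complement genes were named where called, at most 4 per role. A listed gene is not reported here. The labels give 6 animals per group. Pearson correlations of same-numbered libraries' deviations were -0.06 to 0.08, and replicate numbers were not taken as pairs in the main fit. Between genotypes after LPS, however, 4 of 6 libraries were closest to the library of their own number. This was 2 of 6 between genotypes after PBS and 1 of 6 for LPS in each genotype. Fits with a replicate block are therefore given as an alternative. Intervals cover 95%, and the floor of 3 counts covers only the counting error of a PBS group, not that of the LPS counts.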

Additional observations from a re-analysis of the deposited data

Results flagged for a closer look

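In 3 of the 34 sets of 6 libraries examined for the members, 1 library stood apart from the other 5 by Dixon's criterion at the 95% level, which chance meets in about 1 of 20 sets. All 3 sets were knockout LPS. C1qb was highest in replicate 5, at 104.0 CPM, and without that library its genotype difference after LPS was -0.24 in place of -0.21 on the log2 scale, not called in either fit. C3 was highest in replicate 1, at 26.24 CPM, and without it the difference was -0.80 in place of -0.61. C3ar1 was lowest in replicate 2, at 5.489 CPM, and without it the rise after LPS in knockout was 2.73 in place of 2.63.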

How the results depend on the processing

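Under up to 30 alternatives per comparison, 1174 of 1187 member fold changes kept their direction and their side of the threshold (or, in 23 cases called in neither fit, only the sign changed), 4 lost and 9 gained a call, and 0 called values reversed. The 1187 include fits that left out a library of neither group compared. Such fits could move a result only through the filter, the scaling and the shared spread, so this share overstates the stability. The number of members called stayed at 7 in wild type and was 7 to 8 in knockout when single libraries were left out, 0 in every such fit between genotypes after PBS and for the interaction, and 2 to 5 after LPS. It was 5 after LPS without wild type LPS replicates 1 and 2, and 4 with no filter or with a replicate block. Over all genes, 19 were called between genotypes after PBS, against 88 with no filter, 39 with the replicate block, 36 without wild type LPS replicates 1 and 2, 33 with only the 2 groups compared and 13 to 32 leaving out 1 library. After LPS 151 were called, against 293, 273 and 561 under the first 3 of these and 72 to 289 leaving out 1 library. For the interaction 1 was called, against 67, 8 and 249, 3 with DESeq2 and 1 to 20 leaving out 1 library. The cause of these shifts was not tested. The C1qa to C1qb shift in wild type was 0.44 with the replicate block and 0.46 without wild type LPS replicates 1 and 2, where the smallest p these designs allow does not pass the threshold after adjustment, and 0.38 to 0.49 leaving out 1 library. Leaving out 1 library gave 0.13 to 0.25 for it in knockout, 0.20 to 0.29 and 0.09 to 0.20 for C1qc to C1qb in wild type and knockout, and 0.16 to 0.27 for C1qa to C1qc in wild type. Each of these 4 passed the threshold with 1 library left out: C1qa to C1qb (adjusted p = 0.039) and C1qc to C1qb (0.026) in knockout without knockout LPS replicate 2, and in wild type C1qc to C1qb without PBS replicate 2 (0.026) and C1qa to C1qc without PBS replicate 5 (0.013), by exact permutation tests. No interaction could be fitted with only 2 groups. Depth limits C2, C5ar1 and Cfb most, with 24 counts or fewer in any library.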
